A study of Mus musculus with 2 samples.

Results

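The miR-15/16 and miR-195/497 family comprises short regulatory RNAs that share a targeting sequence and come from 3 loci of the mouse genome. Its 6 gene rows of the 1973 miRNA genes in the tables, were taken by gene symbol: Mir15a and Mir16-1, Mir15b and Mir16-2, and Mir195a and Mir497b. They were measured by microRNA sequencing in the adrenal glands of newborn B6NCrl mice at postnatal day 0. Each of the 2 libraries came from the 2 adrenals of 1 pup, both pups came from the same pregnancy, and no treatment or genetic change is named. The labels name pup 1 and pup 2 as biological replicates but give both the same donor identifier, and if that meant a single animal, every spread given here would be technical. Per the labels, sex was not recorded.

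MicroRNAs are cut from hairpin precursors into arms of about the length of the reads, and one arm is usually kept in the silencing complex. Bases 2 to 8 of that arm, the seed, pair with target transcripts, so miRNAs with a common seed share many targets. The miR-15/16 family is known as a brake on the cell cycle and on survival. Its known targets include cyclins and the survival factor Bcl2, and loss of the human MIR15A and MIR16-1 locus is frequent in chronic lymphocytic leukaemia. In the mouse heart, miR-195 is known for its part in the withdrawal of cardiomyocytes from the cell cycle after birth.

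The 5' arms of the family are printed first because the seed defines the family and the bases after it decide which reads can be told apart. Capitals mark the seed, the sequences are from RefSeq (GRCm38.p6, the assembly of mm10), and all 6 members had a mature entry there. The entry of Mir497b, miR-497b, does not hold the seed and is not printed. The printed miR-497a-5p comes from Mir497, on the other strand. The 5' arms of Mir322 and Mir195b, which hold the same seed outside the family, follow for comparison.
miR-15a-5p: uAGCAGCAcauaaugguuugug
miR-15b-5p: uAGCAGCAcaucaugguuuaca
miR-16-5p: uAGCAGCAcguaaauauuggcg
miR-195a-5p: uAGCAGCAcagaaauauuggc
miR-497a-5p: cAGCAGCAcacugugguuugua
miR-322-5p: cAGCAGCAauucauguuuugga
miR-195b: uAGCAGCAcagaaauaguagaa

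Outside the seed the arms fell into close pairs. Counted from the 5' end, miR-15a-5p and miR-15b-5p were identical at 18 of 22 positions and differed by A12C, G20A, U21C and G22A. The arms of miR-16 and miR-195a were identical at 19 of 21 positions and differed by G10A and U11G. The least alike were miR-16-5p and miR-497a-5p, with 11 of 22 positions identical. miR-195b, from a gene on another chromosome, differed from miR-195a-5p by U17G, G19A and C21A. Of 1738 RefSeq mature entries, 11 (0.633%) held this seed.

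Mir16-1 and Mir16-2 encode the same 22-base 5' arm, and it was the only arm of the family listed at more than 1 locus in RefSeq. Their hairpins are printed with the longest run they share around that arm in capitals.
Mir16-1: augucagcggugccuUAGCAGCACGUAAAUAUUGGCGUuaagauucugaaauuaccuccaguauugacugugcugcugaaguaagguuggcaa
Mir16-2: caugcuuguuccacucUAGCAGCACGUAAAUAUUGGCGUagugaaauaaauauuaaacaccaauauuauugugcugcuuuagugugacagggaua
The shared run was 23 bases long, the arm and 1 base after it. A read that lies inside this run matches both loci equally, and reads that matched several loci were kept out of the gene rows. The 3' arms differ and can be told apart:
miR-16-1-3p: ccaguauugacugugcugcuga
miR-16-2-3p: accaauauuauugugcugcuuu
The tables give 1 count per gene and do not separate arms. By sequence, the counts of Mir16-1 and Mir16-2 should therefore hold only reads that reach beyond the shared run or come from the rest of the hairpin. Single reads and the mismatch rules of the alignment were not seen, so this was not tested. The level of miR-16-5p itself cannot be read from these counts. For the other 5' arms of the family, the longest stretch found in a RefSeq miRNA sequence of another gene was 11 bases for miR-15a-5p, miR-15b-5p and miR-497a-5p, and 16 bases for miR-195a-5p, the last one in Mir195b. The RefSeq table held a hairpin for 5 of the 6 members, and matches of the arms elsewhere in the genome were not analysed here.

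The members lie in 3 tight pairs on mm10. Mir15a (ENSMUSG00000093007.1, chr14:61632027-61632110) and Mir16-1 (ENSMUSG00000092995.1, chr14:61631880-61631972) lie on the minus strand, 54 bases apart, in introns of the noncoding RNA gene Dleu2. Mir15b (ENSMUSG00000065580.1, chr3:69009772-69009835) and Mir16-2 (ENSMUSG00000065606.1, chr3:69009902-69009996) lie on the plus strand, 66 bases apart, in introns of Smc4, which encodes a core subunit of the chromosome-packing condensin complex. Mir195a (ENSMUSG00000065411.2, chr11:70235042-70235135) lies on the plus strand with no host gene in GENCODE M21. Mir497b (ENSMUSG00000070109.2, chr11:70234692-70234816) is annotated on the minus strand.

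Mir497, which encodes miR-497a, had no row in the tables and was read through Mir497b. All 84 bases of Mir497 (chr11:70234717-70234800, plus strand) lie inside Mir497b on the other strand, 241 bases from Mir195a. Mir497b had 0 same-strand counts in both pups and 1102 opposite-strand counts in pup 2 and 266 in pup 1. Every counted read of that row was thus on the strand of Mir497, and those reads are called Mir497 here. The 5 other members were the reverse, with all counts on their own strand and 0 on the opposite one in both pups, and no other gene row overlapped any of the 6 members. Reading a hairpin through its antisense partner was needed for few genes: 11 genes had more opposite-strand than same-strand counts in both pups, and Mir497b ranked 9 among them. Those above it were Gm25927, Gm24321, Gm24083, Gm25301, Mir299b, Gm25252, Gm25750 and Mir142b, and those below it were Gm24111 and Mir3074-1. Opposite-strand counts made up 3.15% of the size of the same-strand counts in pup 2 and 3.48% in pup 1.

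The libraries held 3327743 same-strand miRNA gene counts in pup 2 and 1131762 in pup 1, which makes pup 2 2.94 times as deep. For a gene with 0 counts, the limit of 3 counts corresponds to 0.902 CPM in pup 2 and to 2.65 CPM in pup 1. Of the 1973 genes, 635 had a count and 284 averaged at least 10 CPM. The files hold no steroidogenic or chromaffin transcripts, so the adrenal label was set against miRNA markers only. The neuroendocrine markers Mir375 and Mir7-1 had a sum of 30853 CPM in pup 2 and 37893 CPM in pup 1, and the endothelial Mir126a had 102288 CPM in pup 2 and 81620 CPM in pup 1. Mir122, a liver miRNA, was present at 4081 CPM in pup 2 and 2979 CPM in pup 1. Among kidney markers, Mir192 and Mir194-2 had a sum of 198 CPM in pup 2 and 131 CPM in pup 1, and the erythroid Mir451a and Mir144 one of 301 CPM in pup 2 and 281 CPM in pup 1. Outside these sums, kidney Mir215 and Mir194-1 and erythroid Mir486 were lower in pup 2, with values given below. Mir142, a leukocyte marker, had no row of that symbol, and Mir142b, which overlaps it on the other strand, had 857 CPM of opposite-strand reads in pup 2 and 499 CPM in pup 1.

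All 6 members were detected in both libraries at moderate levels, and their order was the same in both pups. Together they took 0.714% of the counted miRNA reads in pup 2 (exact binomial bounds of 0.705 and 0.723) and 0.542% in pup 1 (0.528 and 0.555), a mean of 0.628% ± 0.122 (SD, n = 2). Mir15a was the highest and Mir497 the lowest, with an 8.27-fold span between their means. The lowest member still lay above 78.3% of the genes with a count. The 2 genes of the Dleu2 locus gave most of the family's counted reads. Reads confined to the arm shared by the miR-16 genes are not counted, so the summed counts of the family are a lower limit. The share is no such limit, because multi-mapped reads of other genes are missing from the total too. The make-up of the family, like the order of the loci, holds for the counted reads only.

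**Figure D1:**
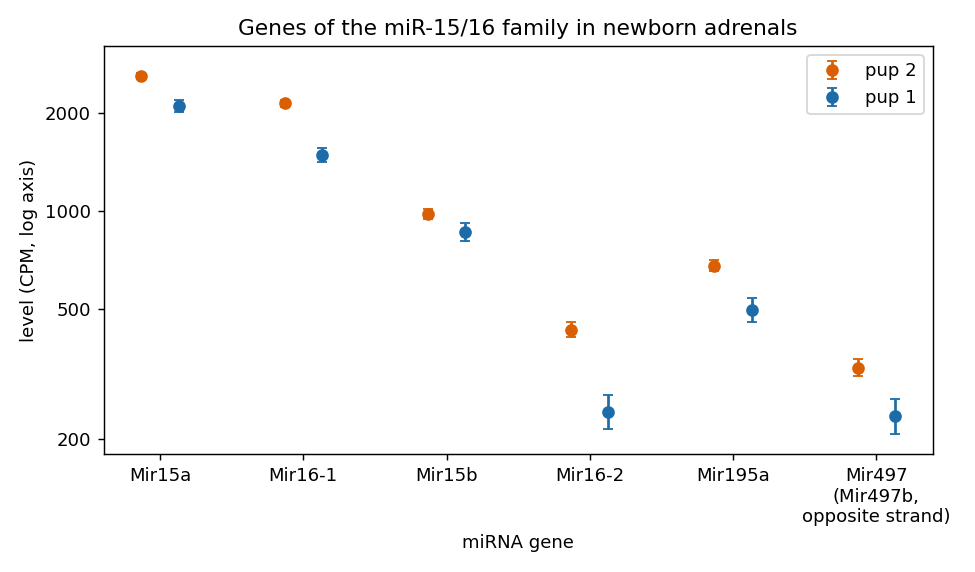
Level of each family gene in CPM on a log axis, with pup 2 and pup 1 as points and exact 95% counting intervals as bars. Mir15a and Mir16-1 lie at 1482 CPM or more in both pups, the other genes at 976 CPM or less, and each gene is higher in pup 2.

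Mir15a, which is cut from Dleu2, had 8607 counts or 2586 CPM in pup 2 and 2373 counts or 2097 CPM in pup 1, a mean of 2342 ± 346 CPM (SD, n = 2, as for all means here). Mir16-1, its neighbour, had 7105 counts or 2135 CPM in pup 2 and 1677 counts or 1482 CPM in pup 1, a mean of 1808 ± 462 CPM. The value of Mir16-1 in pup 2 was above that of Mir15a in pup 1, so across pups their levels overlapped, although Mir15a was higher in each library. They ranked 48 and 60 among all miRNA genes by mean level.

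Mir15b, from the Smc4 intron, had 3249 counts or 976 CPM in pup 2 and 977 counts or 863 CPM in pup 1, a mean of 919.8 ± 80.0 CPM. Mir16-2, in the same intron, had 1440 counts or 433 CPM in pup 2 and 275 counts or 243 CPM in pup 1, a mean of 338 ± 134 CPM. Mir15b had the smallest spread between the pups relative to its mean and Mir16-2 the largest. Their ranks were 80 and 128.

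Mir195a had 2264 counts or 680 CPM in pup 2 and 562 counts or 497 CPM in pup 1, a mean of 588 ± 130 CPM. Mir497, read on the opposite strand of Mir497b, had 331 CPM in pup 2 and 235 CPM in pup 1, a mean of 283 ± 68.0 CPM. Mir195a ranked 102, and Mir497 would rank 139 among the same-strand levels. In the order of the 6 levels, each neighbour differed by more than its SD on the log2 scale except the last pair. Mir16-2 exceeded Mir497 1.31-fold in pup 2 (1.21 to 1.41) and 1.03-fold in pup 1 (0.870 to 1.23), a mean log2 difference of 0.22 ± 0.24. Mir15b over Mir195a gave a mean log2 difference of 0.66 ± 0.20, Mir16-1 over Mir15b 0.95 ± 0.25, and Mir16-2 over Mir195a -0.84 ± 0.27.

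**Figure D2:**
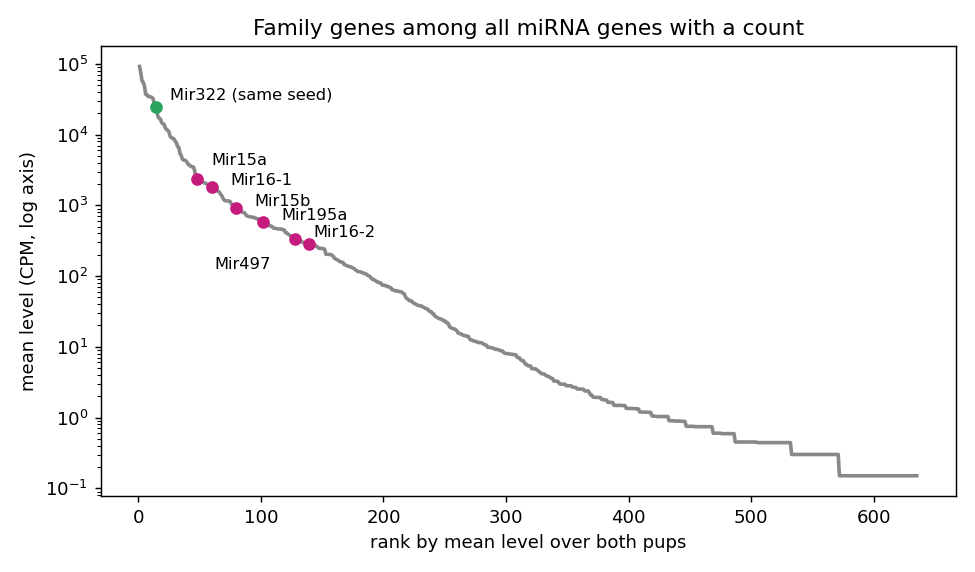
Mean level in CPM on a log axis against rank for the 635 miRNA genes with a count, with the family in magenta and Mir322 in green. The family genes sit between ranks 48 and 139, and Mir322, which has the same seed, sits at rank 14.

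In counted reads the 3 loci were unequal, with the Dleu2 locus first and the Smc4 locus second in both pups. Mir15a and Mir16-1 together reached 4722 CPM in pup 2 and 3578 CPM in pup 1, Mir15b and Mir16-2 reached 1409 CPM in pup 2 and 1106 CPM in pup 1, and Mir195a and Mir497 1011 CPM in pup 2 and 732 CPM in pup 1. By ratio, the Dleu2 locus exceeded the Smc4 locus 3.35-fold in pup 2 (3.24 to 3.46) and 3.23-fold in pup 1 (3.04 to 3.45). The Smc4 locus exceeded the Mir195a locus 1.39-fold in pup 2 (1.33 to 1.46) and 1.51-fold in pup 1 (1.38 to 1.65). The ratios between loci were thus close in both pups. A pup 2 over pup 1 ratio of these ratios of 1.04 (0.964 to 1.11) was found for the first comparison and 0.921 (0.834 to 1.02) for the second, and neither interval left out 1.

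At the Dleu2 and Smc4 loci the miR-15 gene was above its miR-16 neighbour in each library, and the gap was wider in the Smc4 intron. The counts of Mir15a over Mir16-1 gave a ratio of 1.21 in pup 2 (1.17 to 1.25) and 1.42 in pup 1 (1.33 to 1.51), and those of Mir15b over Mir16-2 a ratio of 2.26 in pup 2 (2.12 to 2.40) and 3.55 in pup 1 (3.10 to 4.08). On the log2 scale these were mean differences of 0.39 ± 0.16 and 1.50 ± 0.46. Mir195a over Mir497 gave 2.05 in pup 2 (1.91 to 2.21) and 2.11 in pup 1 (1.82 to 2.45), or 1.06 ± 0.03. Because reads confined to the arm shared by the miR-16 genes are not in these counts, the first pair of ratios does not measure how much miR-15 and miR-16 the glands hold. The share of the multi-mapped reads that came from miR-16-5p was not tested.

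The paralogues differed across loci in the same direction. Mir15a exceeded Mir15b 2.65-fold in pup 2 (2.54 to 2.76) and 2.43-fold in pup 1 (2.25 to 2.62). Mir16-1 exceeded Mir16-2 4.93-fold in pup 2 (4.66 to 5.23) and 6.10-fold in pup 1 (5.36 to 6.95). The miR-16 genes were thus further apart than the miR-15 genes in each library, in reads that could be placed at a single locus.

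**Figure D3:**
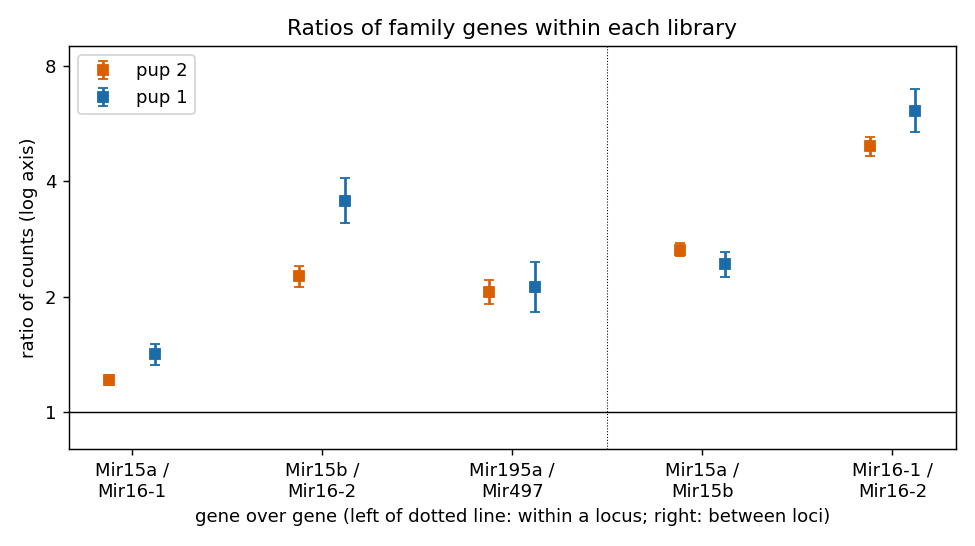
Ratio of counts of one family gene over another on a log axis, with pup 2 and pup 1 as squares and exact 95% intervals as bars. Mir15a over Mir16-1 lies nearest to 1, at 1.21 in pup 2 and 1.42 in pup 1, and Mir16-1 over Mir16-2 lies highest, at 4.93 in pup 2 and 6.10 in pup 1.

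In counted reads, Mir15a and Mir16-1 were closer in level than most neighbouring miRNA genes, and Mir15b and Mir16-2 were in the middle range. Among 98 pairs of adjacent genes on the same strand, at most 10000 bases apart and each averaging at least 10 CPM, the median difference in level was 2.34 on the log2 scale, with quartiles at 1.11 and 4.56. Mir15a and Mir16-1 differed by 0.37, and only 10 of the 98 pairs differed less. Mir15b and Mir16-2 differed by 1.44, inside the quartiles, with 35 pairs closer. Both differences use miR-16 counts without the shared arm. The 98 pairs also hold other genes with a mature sequence at more than 1 locus, which can lose reads in the same way. Such pairs were not set apart. Genes under 10 CPM were dropped before pairing, so one can lie between partners. A gene with partners on both sides counts in 2 pairs, so long clusters such as Mir379 to Mir410 weigh more. The counts of closer pairs are over the mean levels and are a description of the 2 libraries. They leave out Mir195a and Mir497 because Mir497 has no same-strand row.

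Among genes with a mature sequence encoded at more than 1 locus, the miR-16 genes ranked second and 11th by mean level. By RefSeq sequence 87 gene rows were of this kind, of which 41 averaged at least 10 CPM, with a median of 70.9 CPM among those 41. The other 829 matched genes had 220 at that level, with a median of 320 CPM. Mir16-1 lay between Mirlet7f-2 at a mean of 4353 CPM and Mir92-1 at 1014 CPM. These medians cover only the genes that reached 10 CPM, and 31 of the 87 had no count.

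Outside the family, the seed was carried by one abundant gene and by 4 genes without a count. Mir322, of a cluster on chromosome X (chrX:53054255-53054349, minus strand), had 26551 CPM in pup 2 and 22882 CPM in pup 1, a mean of 24717 ± 2595 CPM. Its counted reads exceeded those of the whole family, which lack the shared miR-16 arm, 3.72-fold in pup 2 (3.66 to 3.77) and 4.22-fold in pup 1 (4.11 to 4.34). The family gave 21.2% of all counted reads from genes with this seed in pup 2 and 19.1% in pup 1. Mir195b, Mir6342, Mir6353 and Mir6419 had 0 counts in both pups and were not detected at this depth. Mir195b therefore gave no counted reads, although its mature sequence matches miR-195a-5p at 18 of 21 positions. Mir503, the cluster neighbour of Mir322, is not in this seed group by bases 2 to 8.

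All 6 members had a higher level in pup 2 than in pup 1, and none reached a 2-fold difference. The family ratio of pup 2 over pup 1 was 1.32 (1.28 to 1.36), or 0.40 on the log2 scale. Every member had a ratio with a counting interval above 1. Such intervals cover counting error only, and with 1 library per pup no test of the difference between the animals was possible. Over the 284 genes that averaged at least 10 CPM, 58.1% were higher in pup 2 and 38.7% had a counting interval above 1. A 2-fold difference in either direction was reached by 5.28%, and by 3.52% with the higher level in pup 2. The median log2 ratio was 0.47 over the 6 members and 0.08 over the 284 genes, whose quartiles were -0.22 and 0.36. The members lie in pairs at 3 loci and are not separate draws, and Mir497b is not among the 284 because its reads are on the opposite strand.

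The size of the pup difference varied within the loci. The ratio of pup 2 over pup 1 was lowest for Mir15b at 1.13 (1.05 to 1.22) and Mir15a at 1.23 (1.18 to 1.29). It was 1.37 for Mir195a (1.25 to 1.51), 1.41 for Mir497 (1.23 to 1.62) and 1.44 for Mir16-1 (1.37 to 1.52). Mir16-2 had the highest, 1.78 (1.56 to 2.03) or 0.83 on the log2 scale, and 95.4% of the 284 genes had a lower log2 ratio. In counted reads, both miR-16 genes thus differed more between the pups than the miR-15 gene beside them. The counts of Mir16-1 and Mir16-2 lack reads confined to the arm they share. Whether miR-16 itself differed more between the pups than miR-15 was therefore not tested. The ratio of Mir15a over Mir16-1 in pup 2 was 0.856 times that in pup 1 (0.798 to 0.919), and for Mir15b over Mir16-2 it was 0.635 times (0.546 to 0.737). For Mir195a over Mir497 it was 0.972 times (0.823 to 1.15), an interval that holds 1.

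Neighbouring genes elsewhere also varied in this way. In the 98 adjacent pairs the log2 ratios of the partners differed by a median of 0.40. Mir15a and Mir16-1 differed by 0.22, with 29 pairs closer, and Mir15b and Mir16-2 by 0.65, with 79 pairs closer. Mir322 was 1.16-fold higher in pup 2 (1.14 to 1.18), and its ratio to the family in pup 2 was 0.880 times that in pup 1 (0.853 to 0.908).

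**Figure D4:**
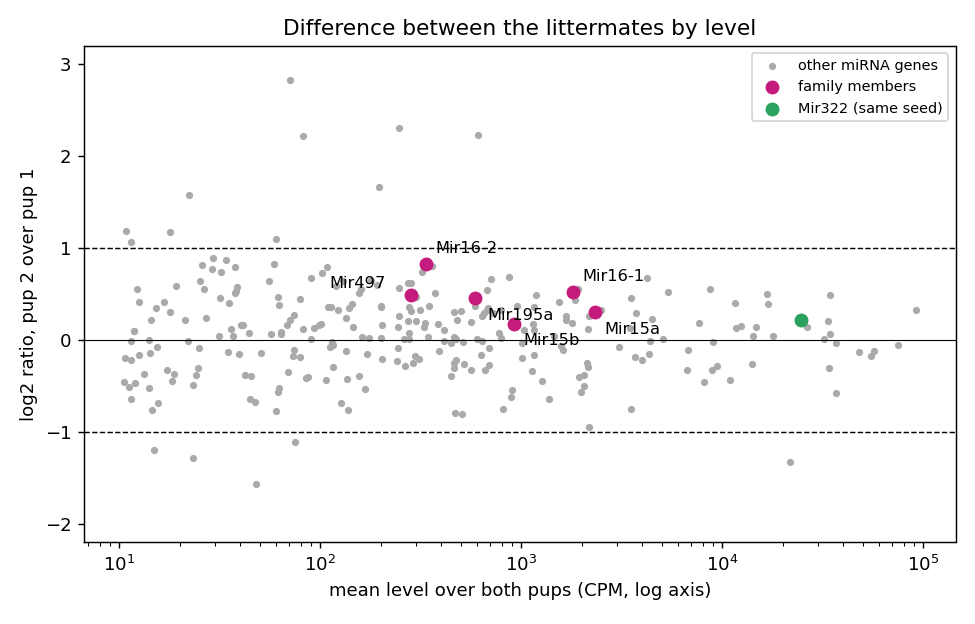
Log2 ratio of pup 2 over pup 1 against mean level in CPM on a log axis for the 284 miRNA genes that averaged at least 10 CPM, with the family in magenta, Mir322 in green and dashed lines at a 2-fold difference. The 6 family genes lie between 0.18 and 0.83, above 0 and below the upper dashed line.

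Markers of other tissues also differed between the pups. The skeletal muscle markers Mir206 and Mir133b had a sum of 412 CPM in pup 2 and 82.2 CPM in pup 1, with Mir133b at 0 counts in pup 1. All 4 listed epithelial markers were measured, and their sum was 491 CPM in pup 2, against 153 CPM in pup 1. The smooth muscle pair Mir143 and Mir145a had 19776 CPM in pup 2 and 15116 CPM in pup 1, and the leukocyte Mir223 had 883 CPM in pup 2 and 704 CPM in pup 1. With the liver, kidney, erythroid and endothelial markers given above, 8 of the 9 marker sums were higher in pup 2, and the neuroendocrine sum was lower. Among the 284 genes averaging at least 10 CPM, 58.1% were higher in pup 2. Some markers left out of the sums were lower in pup 2 than in pup 1. These were erythroid Mir486 (36.1 against 58.3 CPM), kidney Mir215 (23.7 against 72.5) and leukocyte Mir150 (74.5 against 99.0). Kidney Mir194-1 was also lower (2.70 against 13.3), at a mean under 10 CPM. Higher were epithelial Mir200c (138 against 78.6) and Mir142b, given above. The 8 of 9 holds for the listed markers only. The neuroendocrine sum was carried by Mir375, at 30415 CPM in pup 2 and 37586 CPM in pup 1. Mir7-1 was higher in pup 2, at 438 CPM against 307 CPM in pup 1. It has a mature sequence at more than 1 locus, so reads confined to that sequence are not counted. Mir7-2, a gene of the same kind, was lower in pup 2, at 265 CPM against 315 CPM in pup 1. The part of all these markers in the family's difference was not tested. In bulk tissue, fewer cells of a type and less RNA per cell cannot be told apart.

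The genes nearest to each member in level over both libraries were found by Euclidean distance in log2(CPM + 1). Mir15a was nearest to Mir381, with 2772 CPM in pup 2 and 2211 CPM in pup 1, and Mir16-1 to Mir434, with 2136 CPM in pup 2 and 1583 CPM in pup 1. Mir15b was nearest to Mir20a, with 1076 CPM in pup 2 and 829 CPM in pup 1, and Mir16-2 to Mir598, with 404 CPM in pup 2 and 241 CPM in pup 1. As the choice rests on both libraries, their direction between the pups follows from it. Mir195a was nearest to Mir148a, with 662 CPM in pup 2 and 513 CPM in pup 1, and Mir497 to Mir376c, with 345 CPM in pup 2 and 224 CPM in pup 1. These distances ran from 0.06 for Mir148a to 0.15 for Mir20a. The summed family was nearest to Mir369, Mir541 and Mir431, at distances of 0.35 to 0.45. A likeness over 2 libraries says only that the levels were close.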

How the data were processed

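Small RNA of 2 newborn mouse adrenal samples was sequenced, with 1 library per pup. Raw counts of reads for each miRNA gene were deposited by the authors, 1 table per library, on mm10 with GENCODE M4, per the notes among the deposited files. The aligner was not given in the sources used here. Each table has an unstranded, a same-strand and an opposite-strand count column after 4 rows that name no gene. Multi-mapped reads stood in such a row (32.2% of reads in pup 2 and 34.9% in pup 1) and in no gene row. Unmapped reads were 11.2% and 10.6% in pup 2 and pup 1, reads outside genes 3.86% and 4.03%.

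Identifiers were matched to GENCODE M21 on the same assembly, which named 1894 of 1973 gene rows. CPM (counts scaled to a sum of 1000000) were computed over all same-strand gene counts, without the 4 rows. Log2 ratios used a prior of 1 CPM. Intervals are exact 95% ones (Poisson for a level, Clopper-Pearson for a share, conditional for a ratio) and cover counting error only, since PCR copies are not independent molecules. With 1 group of 2 pups no significance test was made. The ratio calculation was checked on simulated counts with known ratios. Alternatives used edgeR 4.0.16 (TMM) and DESeq2 1.42.0 size factors, the unstranded column, all reads as denominator, a prior of 5 CPM, no minimum level, the family without Mir497b, and each pup alone.

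The members, lists and comparisons were chosen with earlier results of these data known. Named genes were the members, genes sharing bases 2 to 8 of miR-15a-5p, overlapping genes, the nearest genes by level, genes read mainly on the opposite strand at or above Mir497b, and cell type markers. Mir503, Gm24111, Mir3074-1, Mir486, Mir215, Mir194-1, Mir150, Mir200c, Mir7-2 and the leading genes with repeated mature sequences were named after their values were seen.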

Additional observations from a re-analysis of the deposited data

How the results depend on the processing

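The family kept its direction under each alternative tried, and all 6 members were higher in pup 2 under each scaling. With all reads as denominator the share of the family was 0.325%, since multi-mapped and unmapped reads then count, and the log2 ratio of pup 2 over pup 1 was 0.46. TMM scaling moved the median log2 ratio of all genes up by 0.10 and that of the family to 0.50. Without a minimum level, 85 genes passed 2-fold in place of 15, and the added genes had a mean under 10 CPM. No member passed 2-fold under any of these settings, and Mir16-2 came closest at 0.94 with TMM scaling. With each pup alone the share was 0.542% to 0.714%, and the log2 differences were 0.28 to 0.50 for Mir15a over Mir16-1, 1.17 to 1.82 for Mir15b over Mir16-2 and 1.04 to 1.08 for Mir195a over Mir497. Of 30 alternative log2 ratios of single members, 27 stayed within the counting interval, 3 moved and 0 changed sign. Of 24 alternative mean levels, the 6 with all reads as denominator moved by more than the SD. No paired analysis was possible because there is a single group. Depth limits the genes without a count, and the loss of multi-mapped reads limits Mir16-1 and Mir16-2.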
